A study of Mus musculus with 4 samples.

Results

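The genes described here are the mouse zinc finger genes numbered Zfp700 to Zfp999, taken as every gene of the deposited count table whose symbol is Zfp followed by a 3-digit number that starts with 7, 8 or 9. This rule found 128 of the 50559 genes listed, and 121 of the 128 passed the filter on low counts among 18144 genes tested. RNA was sequenced from mouse embryonic stem cells (ESCs) of the E14 line, grown on gelatin in serum replacement medium with leukemia inhibitory factor. One group of 2 libraries came from cells transfected with a non-targeting siRNA (siNT) and the other group of 2 from cells transfected with siRNA against Cnot1 (siCnot1), both at 150 nM and collected 48 h later. The paper describes its ESCs as carrying a tdTomato reporter under the promoter of the retrotransposon MERVL. The comparison asks which transcripts change when Cnot1 is knocked down in otherwise untreated ESCs of 1 line. The labels do not say whether the replicates were separate cultures, although the methods call them independent, so the p-values measure the spread between these libraries.

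Most of these genes encode C2H2 zinc finger proteins, in which tandem fingers read DNA sequence. Many also carry a KRAB domain, which recruits the corepressor TRIM28 and, through it, the histone methyltransferase SETDB1 and HP1 proteins, and this pathway keeps retrotransposons silent in ESCs. The genes arose by repeated duplication and sit in clusters, and their mRNAs are known as a short-lived class. CNOT1 holds together the CCR4-NOT deadenylase, whose shortening of poly(A) tails starts the decay of mRNAs.

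Cnot1 itself was measured at 912 and 985 normalized CPM (counts scaled to the library size) in siNT and at 185 and 192 in siCnot1, a log2 fold change of -2.33 (SE 0.06, adjusted p = 2.37e-18). Total counts ran from 32135824 to 32557440 per library, and a gene with 3 counts lies at 0.0921 to 0.0934 CPM. Of 15 listed markers of 2-cell-like cells, 13 rose with the knockdown, and their summed level went from 117 and 119 to 313 and 321 normalized CPM. Of 10 ESC markers 7 fell and 1 rose, with sums of 7598 to 7871 in siNT and 6408 to 6702 in siCnot1. Over all genes tested, 15% rose and 14.7% fell. The 7 falls were small and well measured, from -0.15 (Tfcp2l1, SE 0.056) to -0.45 (Tdgf1, SE 0.055) on the log2 scale. Of 7 trophectoderm markers 1 rose and 2 fell, of 6 primitive endoderm markers 1 rose, of 4 epiblast-like markers 2 fell and of 3 neural markers 1 fell. Of 5 fibroblast markers, 1 rose (Col1a1, from 1.25 and 1.53 to 3.46 and 3.91 normalized CPM), Thy1 and Col1a2 did not pass, Twist2 had at most 0.06 CPM and Prrx1 had 0 counts in all libraries, with sums of 8.74 to 12.1 in siNT and 12.7 to 13.3 in siCnot1. The part of these markers in the results below was not tested. In bulk RNA, fewer cells of a type and less RNA per cell cannot be told apart.

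Because the members that rose are concentrated in 1 gene cluster on chromosome 17, the sequences just upstream of 4 genes of that cluster are shown first. All come from RefSeq (build GRCm38.p6) and cover the 250 bases before the annotated start, 5′ to 3′ on the strand of the gene. Capitals mark CACGTGAC on either strand, and where the motif and its reverse complement overlap the capitals run on. Zfp758 (chr17:22361213-22361462, plus strand) and Zfp943 (chr17:21962309-21962558, plus strand) are a nearly identical pair. Zfp994 (chr17:22225615-22225864, minus strand) and Zfp820 (chr17:21845760-21846009, minus strand) are a pair of the other 6 members of the cluster with the motif, chosen after their values were seen because both rose.
Zfp758: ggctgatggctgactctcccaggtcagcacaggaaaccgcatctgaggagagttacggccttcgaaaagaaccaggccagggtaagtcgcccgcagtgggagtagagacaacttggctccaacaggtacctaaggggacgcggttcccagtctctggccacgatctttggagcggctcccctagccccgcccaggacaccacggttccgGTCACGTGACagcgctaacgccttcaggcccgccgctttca
Zfp943: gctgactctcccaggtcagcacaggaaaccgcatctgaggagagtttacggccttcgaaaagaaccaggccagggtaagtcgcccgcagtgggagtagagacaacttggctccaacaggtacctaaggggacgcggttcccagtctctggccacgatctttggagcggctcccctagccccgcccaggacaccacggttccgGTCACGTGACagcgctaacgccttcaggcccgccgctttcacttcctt
Zfp994: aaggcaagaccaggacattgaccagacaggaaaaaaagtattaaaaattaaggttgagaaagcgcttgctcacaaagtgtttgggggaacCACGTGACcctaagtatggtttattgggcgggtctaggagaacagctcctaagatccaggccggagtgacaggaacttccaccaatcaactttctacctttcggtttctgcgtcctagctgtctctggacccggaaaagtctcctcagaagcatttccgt
Zfp820: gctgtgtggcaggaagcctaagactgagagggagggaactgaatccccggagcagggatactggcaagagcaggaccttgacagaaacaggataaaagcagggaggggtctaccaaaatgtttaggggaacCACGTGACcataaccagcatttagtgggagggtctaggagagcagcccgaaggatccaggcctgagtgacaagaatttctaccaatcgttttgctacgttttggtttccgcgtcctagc
The Zfp758 and Zfp943 promoters, each taken as 300 bases from 250 before to 50 after the start, were identical at 292 aligned bases, and those of Zfp994 and Zfp820 at 196. CACGTGAC was found in 12 of 131 promoters of 112 members (9.16%) and in 738 of 32851 promoters of all genes (2.25%). In the chromosome 17 cluster 8 of 13 members had it. Zfp944 and Zfp758 start beside each other on opposite strands, and so do Zfp942 and Zfp943. The promoter windows of each pair overlap, so 1 site can count for both genes of a pair, here and in the count over members. A match describes these letters only and says nothing about a bound factor.

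Of the 121 members tested, 20 (16.5%) changed in siCnot1 cells at an adjusted p under 0.05, against 29.7% of all genes tested. Among them 13 rose, which is 10.7% of the members beside 15% of all genes, and 7 fell, which is 5.79% beside 14.7%. With this scaling the share called was below the background in both directions. With library totals in place of scaled library sizes, which moves the median log2 fold change of all genes from 0.01 to 0.12, 29 members were higher (24% beside 22% of all genes) and 2 lower (1.65% beside 8.64%), of which 13 and 2 were among those called here. The share of higher members was then slightly above the background. The members' median log2 fold change was 0.06 and that of all genes 0.01, with 76 members above 0 and 45 below. The middle 50% of the members lay between -0.07 and 0.26, a narrower span than the -0.22 to 0.31 of all genes. The median size of the change, without its sign, was 0.15 in the members and 0.26 over all genes. Every one of the 20 called members changed less than 2-fold. At the thresholds the study used, an unadjusted p of at most 0.05 with a log2 fold change of at least 1, 2 members were higher and 0 lower, in edgeR as in DESeq2, beside 6.18% of all genes higher and 1.8% lower. These 2 were Zfp703 and Zfp783, and both had an adjusted p just over the threshold.

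**Figure D1:**
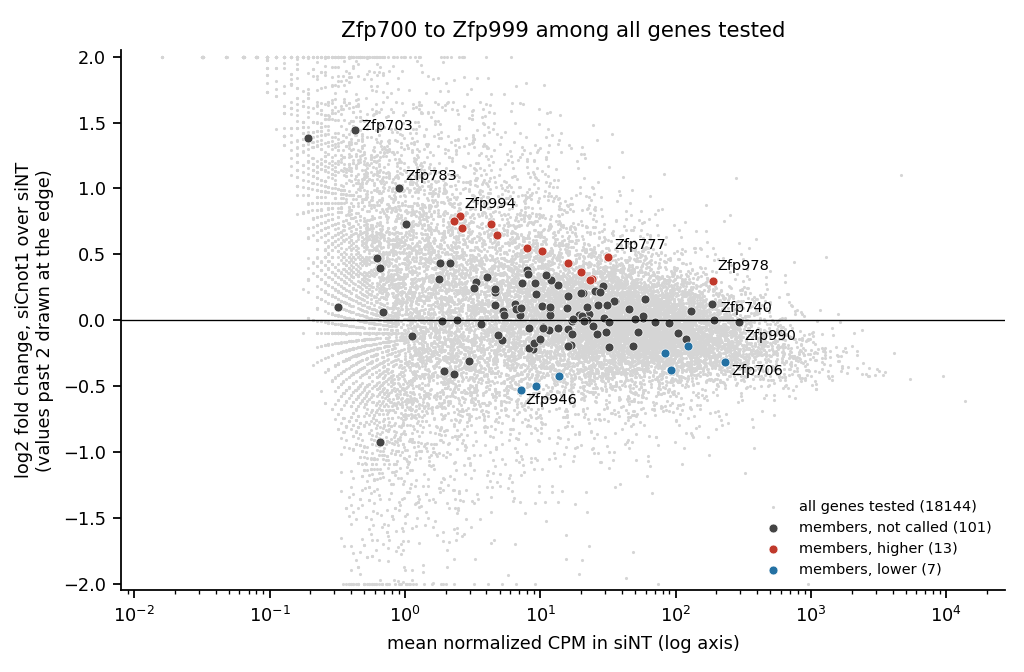
Log2 fold change of siCnot1 over siNT against the mean normalized CPM in siNT (log axis) for all 18144 genes tested (grey), the 101 members not called (black), the 13 higher (red) and the 7 lower (blue). Most members lie near 0, and the called ones stay within 2-fold.

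For the 101 members that did not pass, the 95% interval of the log2 fold change shows how far the data reach. It lay within -1 to 1 for 88 of them and within -0.5 to 0.5 for 64. The median SE was 0.13 for the members and 0.14 for all genes, and the median siNT level was 11.8 normalized CPM for the members and 11.3 for all genes. The medians were thus alike, although 8 of the 121 members and 3818 of the 18144 genes lay under 1 normalized CPM in siNT. Both siCnot1 libraries lay above both siNT libraries in 40 of 121 members and below them in 22, beside 5936 and 5657 of 18144 genes. Of these members, 42 did not pass the test although their groups did not overlap. Such genes were common over all genes as well, since only 5387 of the 18144 were called.

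The 7 members that were not tested had few counts. Zfp735, Zfp957, Zfp981 and Zfp992 had 0 counts in all 4 libraries, which allows up to the 0.0921 to 0.0934 CPM given above. Zfp973 had 0 and 1 counts in siNT and 11 and 9 in siCnot1. Zfp831 had 2 and 2 against 12 and 4, and Zfp872 had 5 and 6 against 12 and 8. All 3 were higher in both siCnot1 libraries, at counts too low for the test.

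Among the members that rose, Zfp777 had the smallest p. This gene (chr6:47994594-48026963, minus strand, positions as in the deposited table) was at 32.3 and 31.2 normalized CPM in siNT and at 45.6 and 43.2 in siCnot1. The replicates of each group were close and the groups far apart, with a log2 fold change of 0.48 (SE 0.09, adjusted p = 0.000258). Zfp978, on chromosome 4, was among the 5 most abundant members and went from 175 and 201 to 245 and 218 normalized CPM. How much of its sequence other genes share was not measured, so its level is uncertain. Its change of 0.30 (SE 0.07, adjusted p = 0.00161) was small and ran from 0.20 without siNT replicate 1 to 0.40 without siNT replicate 2. The siNT replicates differed from each other by more than siNT replicate 2 differed from siCnot1 replicate 2. Zfp750, which is known as a regulator of epidermal differentiation and holds no match to the C2H2 finger pattern searched here, stood at 3.79 and 4.85 against 7.01 and 7.29. It had one of the largest changes among the called members, 0.73 (SE 0.19, adjusted p = 0.00574).

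Zfp790 on chromosome 7 rose from 8.16 and 7.71 to 10.9 and 12.3 normalized CPM, a change of 0.55 (SE 0.15, adjusted p = 0.00645). Zfp963 on chromosome 8 was at 2.44 and 2.81 in siNT and at 5.25 and 3.25 in siCnot1, so that siCnot1 replicate 1 stood well above the other 3 libraries. Its change of 0.70 (SE 0.26) passed at an adjusted p of 0.0479, close to the threshold. The call was lost with DESeq2, with limma-voom (0.66) and with a replicate block in the fit (0.67), and the change was 0.31 without siCnot1 replicate 1 and 0.99 without siCnot1 replicate 2. Of the 100-base windows of its transcript, 38% also occur in another gene. Zfp991 on chromosome 4, which passed but is not chosen by the naming rule, went from 21.2 and 25.2 to 29.3 and 28.0, a change of 0.30 (adjusted p = 0.0331), and shares 73.8% of such windows with other genes. How the authors' counting treated reads that match several genes is not given in the sources used here, so the levels of both genes are uncertain. The other 7 members that rose belong to the chromosome 17 cluster and are described with it.

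The most abundant member that fell was Zfp706, which encodes a small protein with a single finger and is known as a gene that promotes exit from ESC self-renewal. It was at 227 and 240 normalized CPM in siNT and at 181 and 194 in siCnot1 (chr15:36997271-37007646, minus strand), with no overlap. The log2 fold change was -0.32 (SE 0.06, adjusted p = 0.000259), a decrease of under 2-fold measured on 6054 to 7524 counts. Zfp982 on chromosome 4 went from 83.5 and 102 to 71.1 and 71.4, a change of -0.38 (SE 0.08, adjusted p = 0.000779). That change ran from -0.52 without siNT replicate 1 to -0.23 without siNT replicate 2. Here the siCnot1 replicates were nearly equal and the spread lay between the siNT replicates.

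Zfp871, on chromosome 17 but outside the cluster with the rising genes, fell from 79.5 and 88.5 to 73.6 and 67.6 normalized CPM (log2 fold change -0.25, SE 0.07, adjusted p = 0.0122). Zfp961 on chromosome 8 fell from 116 and 133 to 109 and 108 (-0.20, SE 0.07, adjusted p = 0.0288). With library totals Zfp871 came to -0.14 and Zfp961 to -0.09, and neither passed. Without 1 library Zfp961 ran from -0.30 (siNT replicate 1 left out) to -0.10 (siNT replicate 2 left out). Both are abundant members with small changes.

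Zfp931 on chromosome 2 fell from 14.5 and 12.9 to 9.99 and 10.4 normalized CPM (-0.42, SE 0.13, adjusted p = 0.0191), and 15.4% of its 100-base windows also occur in other genes. Zfp819, a KRAB zinc finger gene linked to the repression of retrotransposons in pluripotent cells, fell from 9.54 and 8.93 to 5.97 and 7.08 (-0.50, SE 0.16, adjusted p = 0.0231). Zfp819 did not pass with DESeq2 (-0.51). With library totals neither gene passed, at -0.32 for Zfp931 and -0.395 for Zfp819. For Zfp931 and Zfp819 the higher siNT library was replicate 1, whereas for the remaining 5 members that fell it was replicate 2.

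**Figure D2:**
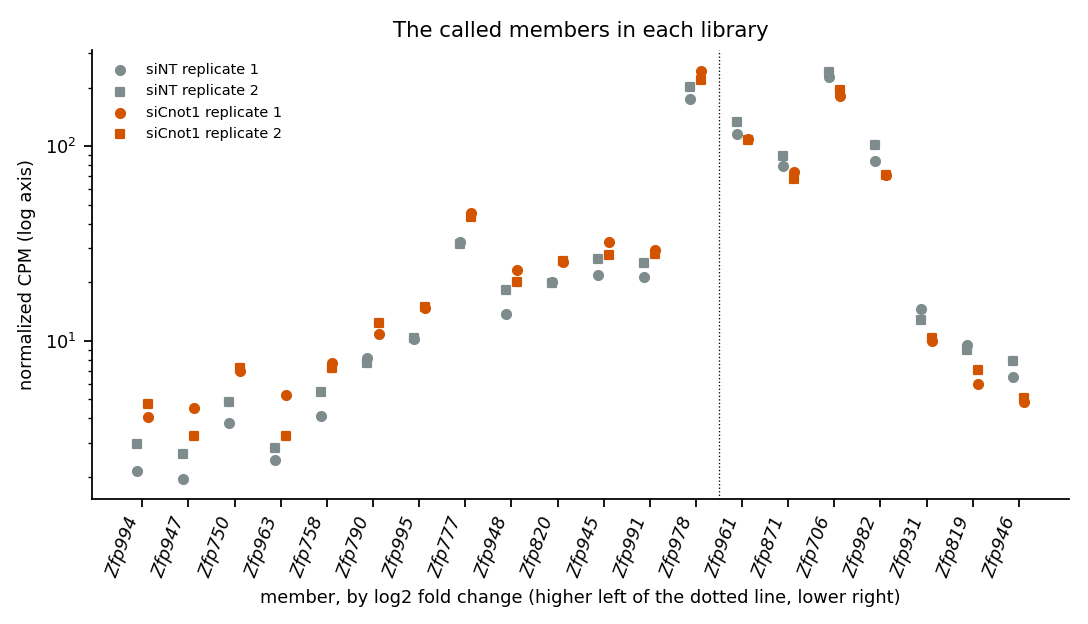
Normalized CPM (log axis) of the 20 called members in each of the 4 libraries, siNT in grey and siCnot1 in orange, circles for replicate 1 and squares for replicate 2. The groups do not overlap in any called member, and siNT replicate 2 lies closer to siCnot1 than replicate 1 does in most of the 13 members that rose.

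Levels of different genes were compared per length, as normalized CPM per kilobase of exon (FPKM, computed here from the counts and the deposited exon lengths). The 5 highest members in siNT were Zfp990 at 97.7 ± 8.7, Zfp978 at 72.9 ± 7.2, Zfp979 at 71.1 ± 8.5, Zfp706 at 52.8 ± 2.1 and Zfp961 at 45.7 ± 4.3 FPKM (SD, n = 2). The first 3 lie in the chromosome 4 cluster, and Zfp978 and Zfp979 do not differ beyond their spread. Zfp990 was at 274 and 311 normalized CPM in siNT and at 297 and 283 in siCnot1, a log2 fold change of -0.01 with a 95% interval from -0.14 to 0.12. Zfp979 was at 170 and 201 against 205 and 200, with a change of 0.12 (SE 0.07, adjusted p = 0.173). Of these 5, then, 1 rose, 2 fell and 2 did not pass.

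Several members are known from work on silencing or development, and most of them did not pass the test. Zfp809, which recognizes the primer binding site of murine leukemia viruses and recruits TRIM28 there, was at 52.9 and 52.7 normalized CPM in siNT and at 48.1 and 51.2 in siCnot1, with an interval of the log2 fold change from -0.26 to 0.08. Zfp932, which binds endogenous retroviruses in ESCs, was at 23.0 and 30.3 against 30.2 and 27.6, and the difference between the siNT replicates covered the siCnot1 values (interval -0.12 to 0.35). Zfp708, which is known to bind a family of retrotransposons, was at 3.24 and 3.47 against 4.06 and 4.18, a change of 0.29 (SE 0.23) on a transcript whose 100-base windows all occur in another gene as well.

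Zfp740 was among the best measured members, at 192 and 194 against 190 and 197 normalized CPM, and its log2 fold change of 0.00 had an interval from -0.11 to 0.12. Zfp704 was at 107 and 103 against 97.4 and 97.9 (interval -0.23 to 0.03). Zfp827, known for a role at telomeres, was at 20.8 and 20.7 against 24.5 and 23.2, a change of 0.20 (SE 0.10, adjusted p = 0.151). None of the 3 passed, and for each a 2-fold change lies outside the interval.

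Zfp703, a developmental corepressor gene, had only 7 and 20 counts in siNT and 29 and 50 in siCnot1. Its log2 fold change of 1.44 (SE 0.55) was the largest of the 121 tested members, with an adjusted p of 0.0512, and siNT replicate 1 had well under the level of replicate 2. Zfp711, an X-linked relative of Zfx, was at 1.73 and 2.04 against 1.79 and 1.97 normalized CPM, with a wide interval from -0.65 to 0.64. Zfp787 was at 4.82 and 6.03 against 6.26 and 4.90, so the groups overlapped (interval -0.37 to 0.46).

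Neighbouring members whose starts lay at most 1000000 bp apart were joined into clusters, and 10 clusters held at least 4 members each. They contained 77 of the 128 members, of which 73 were tested, 11 rose and 5 fell (21.9% called), while of the 48 tested members outside clusters 2 rose and 2 fell (8.33%). Both shares were below the 29.7% of all genes. Of the 16 called members in clusters, 8 lie in 1 cluster on chromosome 17, described below, so the contrast rests largely on that cluster. Positions are those of the deposited table. The labels name the build mm10, but 0 of 127 members started within 100 bp of their start in the GRCm38 annotation, so the build of these positions is not given in the sources used here.

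**Figure D3:**
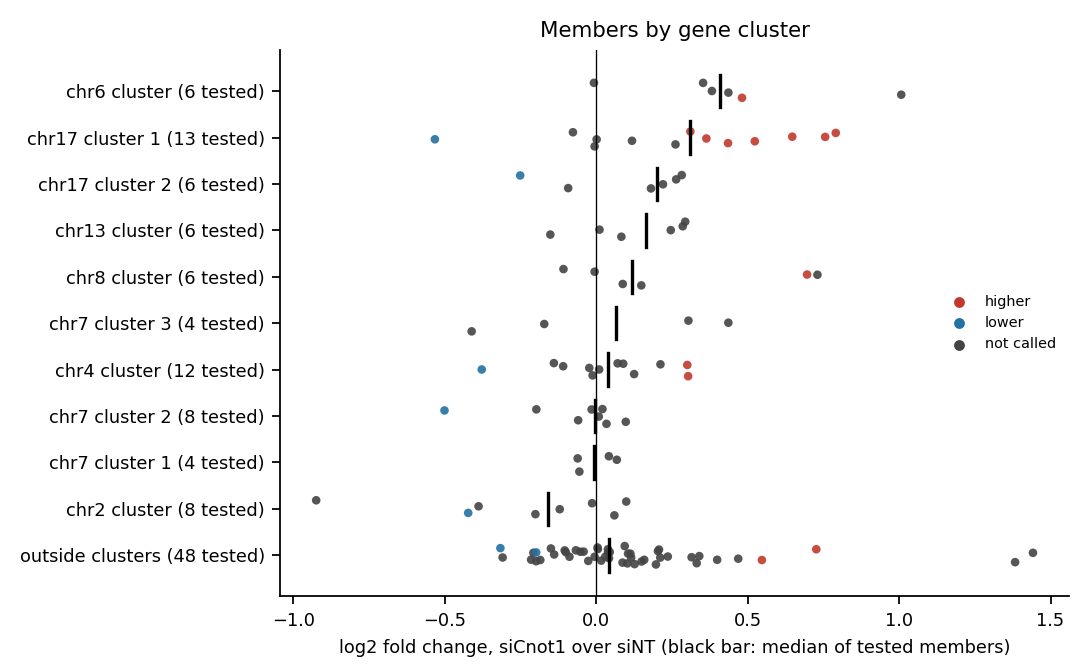
Log2 fold change of siCnot1 over siNT of each tested member, by cluster in order of the median (black bar), with the 48 members outside clusters in the last row. Red and blue points are members that rose and fell. The chromosome 6 cluster and the first chromosome 17 cluster have the highest medians, 0.41 and 0.31, and the chromosome 2 cluster the lowest, -0.16.

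The first chromosome 17 cluster (chr17:21786082-23086285) was singled out after its values were seen. It held 13 members, all tested, and 7 of them rose and 1 fell. That is 61.5% called, beside 11.1% of the other 108 members tested (6 higher, 6 lower) and 29.7% of all genes. Its median log2 fold change was 0.31, against 0.04 for the members elsewhere and 0.01 for all genes. On the log2 scale of normalized CPM plus 0.5, the mean of siCnot1 exceeded siNT replicate 1 alone by a median of 0.38 (10 of 13 members above 0) and siNT replicate 2 alone by 0.17 (8 of 13). The summed level of its 13 members was 143 and 161 normalized CPM in siNT and 190 and 176 in siCnot1. The siCnot1 mean was 20.4% above the siNT mean, while siNT replicate 2 was 12.4% above replicate 1.

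Of the members of this cluster, Zfp995 had the smallest p, at 10.2 and 10.3 normalized CPM in siNT and 14.7 and 14.8 in siCnot1. All 4 values fell into 2 tight pairs, with a log2 fold change of 0.52 (SE 0.13, adjusted p = 0.00329). Zfp820 was at 20.0 and 19.8 against 25.4 and 25.8, likewise with close replicates, and rose by 0.36 (SE 0.10, adjusted p = 0.00945). Zfp948 was at 13.8 and 18.2 against 23.1 and 20.2, a change of 0.43 (SE 0.13, adjusted p = 0.0115) across a wider spread in siNT. That change ran from 0.24 without siNT replicate 1 to 0.65 without siNT replicate 2.

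Zfp758 was at 4.11 and 5.45 normalized CPM in siNT and 7.70 and 7.29 in siCnot1, a log2 fold change of 0.65 (SE 0.19, adjusted p = 0.0115). Zfp994 was at 2.15 and 2.93 against 4.06 and 4.75 and had the largest change of any called member, 0.79 (SE 0.25, adjusted p = 0.018). Its call was lost with DESeq2, at a change of 0.79 there too. Zfp947 was at 1.96 and 2.61 against 4.50 and 3.23, a change of 0.76 (SE 0.27, adjusted p = 0.0356). That change did not pass with DESeq2 (0.75). It ran from 0.49 without siCnot1 replicate 1 to 0.98 without siNT replicate 2. In all 3 genes siNT replicate 2 was the siNT library nearer to siCnot1. Zfp945, which passed but is not chosen by the naming rule, was at 21.8 and 26.3 against 32.1 and 27.5 (0.31, SE 0.11, adjusted p = 0.0369).

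The member of this cluster that fell was Zfp946, at 6.52 and 7.91 normalized CPM in siNT and 4.86 and 5.11 in siCnot1, with a log2 fold change of -0.53 (SE 0.18, adjusted p = 0.0318). Zfp946 did not pass with DESeq2 (-0.54) or with library totals (-0.43). It lies between Zfp758 and Zfp945, both of which rose. The 5 members that did not pass, named here after their values were seen, were Zfp760 at 0.26 (SE 0.10, adjusted p = 0.054), Zfp943 at 0.12, Zfp983 and Zfp944 at 0.00 and -0.01, and Zfp942 at -0.08.

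The nearly identical promoters printed above can be set beside these values. Zfp943 was at 4.14 and 5.07 normalized CPM in siNT and 4.83 and 5.17 in siCnot1 (0.12, 95% interval -0.31 to 0.54), and Zfp758 had 0.65 with an interval from 0.26 to 1.04. The intervals overlap, and the difference between the genes was not tested. Neither transcript shares a 100-base window with another gene. Zfp944 starts from the opposite strand beside Zfp758 and was at 17.4 and 17.4 against 18.1 and 16.6, with an interval from -0.24 to 0.23, while Zfp758 rose. Of the 8 members of the cluster with CACGTGAC in the promoter, 4 rose, 1 fell and 3 did not pass, and of the 5 without it, 3 rose and 2 did not pass. Zfp758 and Zfp944 are counted apart here although their promoter windows overlap, and so are Zfp943 and Zfp942. Outside the cluster, 4 tested members had the motif, of which 2 fell (Zfp819 and Zfp871) and 2 did not pass. A second sequence, CCAATCA, was in 51 of the 131 member promoters (38.9%) and in 7.82% of all promoters, but in 1 of 13 of the cluster. Neither motif contains the other, and both were chosen after the sequences were seen.

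The interval also holds 27 other listed genes, 14 of them tested, and 6 of these rose and 0 fell. Over all genes tested, 15% rose and 14.7% fell. The median change of the 14 was 0.54 on the log2 scale. The best measured of them was Zfp229, at 121 and 146 normalized CPM against 145 and 139, a change of 0.09 (SE 0.07, adjusted p = 0.412). Gm7072 was at 13.0 and 15.9 against 28.3 and 22.2, a change of 0.81 (SE 0.13, adjusted p = 3.89e-05). The rises in this interval were thus not limited to Zfp700 to Zfp999 genes. The other 5 that rose carry predicted-gene names beginning with Gm, and a pair of them, Gm9772 and Gm5493, lay below 0.2 CPM in both siNT libraries. This pair passed the filter on low counts only through its siCnot1 values, so it could be called only as higher. It is counted among the 6 and in the median.

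**Figure D4:**
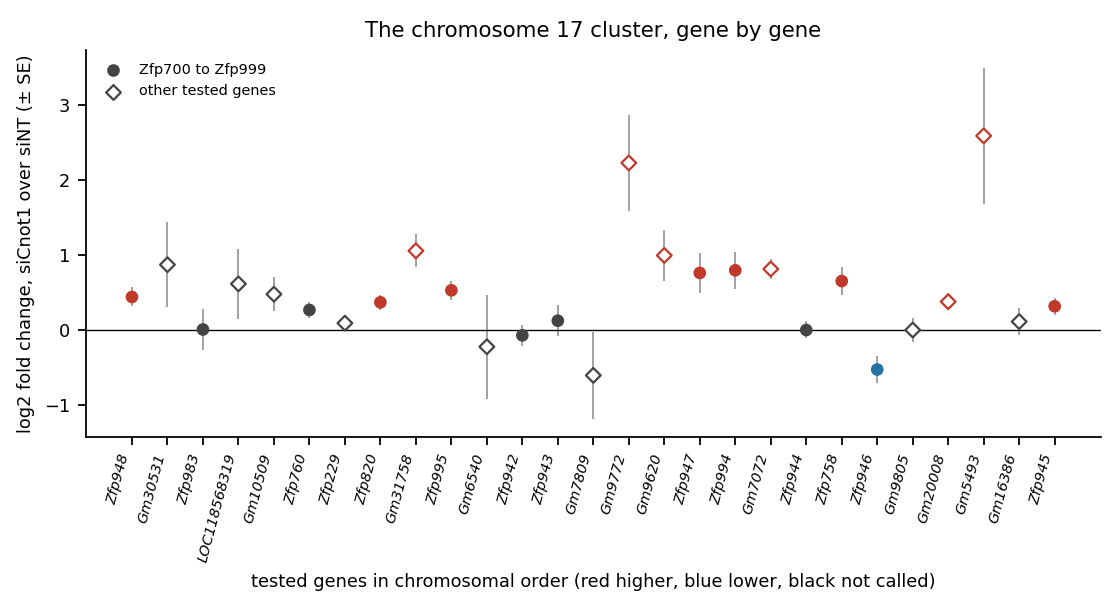
Log2 fold change of siCnot1 over siNT (bars: SE) of the 27 tested genes of the first chromosome 17 cluster in chromosomal order, with filled circles for the 13 members and open diamonds for 14 other genes, red where higher, blue where lower and black where not called. Called genes are spread across the interval, and Zfp946 is the only one that fell.

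The largest cluster by number was on chromosome 4 (chr4:145237329-147933583), with 14 members, 12 tested, 2 higher (Zfp978 and Zfp991), 1 lower (Zfp982) and a median of 0.04. It supplied much of the family's RNA, with summed levels of 1015 and 1185 normalized CPM in siNT and 1179 and 1123 in siCnot1, out of 3352 and 3659 against 3589 and 3510 for all 128 members. Its sum was 16.8% higher in siNT replicate 2 than in replicate 1, more than the 4.62% by which the siCnot1 mean exceeded the siNT mean. Several of its genes share sequence with other genes. The share of 100-base windows was 77.9% for Zfp987, 75.7% for Zfp993, 46.6% for Zfp988, 46.1% for Zfp980 and 31.2% for Zfp984, which did not pass the test, and 73.8% for Zfp991, which rose. Zfp978, which also rose, had no coding transcript for this search, but 303 windows of Zfp979 occur in it too.

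The chromosome 6 cluster (chr6:47792470-48598482) had the highest median, 0.41, from 6 members of which 1, Zfp777, rose. Its sum was 74.4 and 69.5 normalized CPM in siNT and 89.8 and 91.7 in siCnot1, 26.2% higher in siCnot1, and here siNT replicate 2 was the lower one. Zfp783, which met the study's thresholds, was at 0.71 and 1.12 against 1.55 and 2.12, a change of 1.01 (SE 0.39, adjusted p = 0.052). Zfp746, known as the Parkin substrate PARIS, was the exception in the cluster at -0.01 (95% interval -0.23 to 0.21). These 2 are named after their values were seen.

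The chromosome 2 cluster (chr2:174440453-177721858) was the lowest, with a median of -0.16 over 8 tested of 10 members, and Zfp931 fell. Its sum was 78.5 and 86.3 normalized CPM in siNT and 76.0 and 72.2 in siCnot1. Near-identical copies lie here too: all 100-base windows of Zfp965, Zfp967 and Zfp968 occur in other genes, and none of the 3 passed. Zfp931 shares 15.4% of its windows, with 17 other genes.

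In the other 6 clusters at most 1 member passed. The second chromosome 17 cluster (chr17:32984470-33252355) had a median of 0.20 although its called member, Zfp871, fell. On chromosome 13 the median was 0.16 and 0 of 6 passed, also at an unadjusted p under 0.05 and with DESeq2 or limma-voom, the smallest p there being that of Zfp738 at 0.29 (SE 0.16, adjusted p = 0.202). On chromosome 8 the median was 0.12 and Zfp963 rose. The 3 clusters of chromosome 7 had medians from -0.01 to 0.07, and Zfp819 fell in the second. In the first the smallest p was that of Zfp954, at -0.06 (SE 0.14, adjusted p = 0.793), and in the one nearest the chromosome end that of Zfp771, at 0.30 (SE 0.13, adjusted p = 0.0748).

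The siNT replicates differed over the members in a way they did not over all genes. Of 121 members 88 (72.7%) were higher in siNT replicate 2 than in replicate 1, against 49.7% of all genes, with a median log2 difference of 0.12 (log2 of normalized CPM plus 0.5) against 0.00. The siCnot1 replicates showed no such shift, with 57 members higher in replicate 2 and a median of -0.02. Against siNT replicate 1 alone the mean of siCnot1 was higher in 86 members, with a median of 0.12, and against siNT replicate 2 alone it was higher in 54 and lower in 67, with a median of -0.03. The same held in part for Zfp1 to Zfp699, with medians of 0.06 and -0.01. The sign of the members' median difference therefore rests on siNT replicate 1. In edgeR fits with the remaining 3 libraries, 1 member rose and 3 fell without siNT replicate 1, at a median of -0.02 on the log2 scale, and 5 rose and 0 fell without siNT replicate 2, at a median of 0.13. The share of all genes called fell as well, from 29.7% to 8.33% and 11.1%. At an unadjusted p under 0.05 these fits had 10 members higher and 6 lower, and 26 higher and 4 lower. None of the 20 called members changed sign in either fit, which follows largely from groups that do not overlap. In the chromosome 17 cluster 0 members passed as higher without siNT replicate 1 or siCnot1 replicate 2, 1 without siCnot1 replicate 1 and 2 without siNT replicate 2, while 3 to 8 were higher at an unadjusted p under 0.05. With DESeq2 4 members of the cluster passed as higher.

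**Figure D5:**
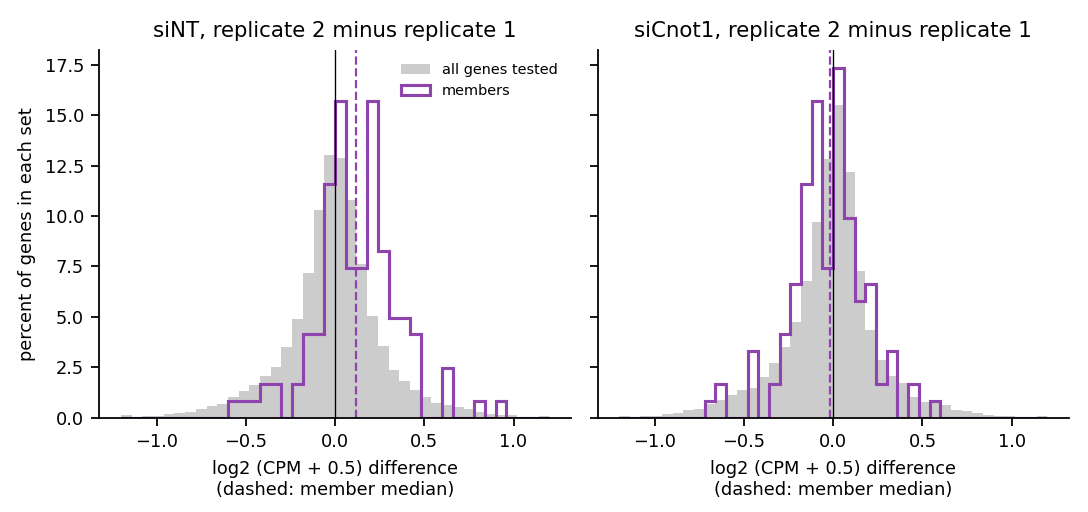
Distribution of the log2 difference in normalized CPM plus 0.5 between replicate 2 and replicate 1, as percent of genes per bin, for siNT (left) and siCnot1 (right), with all tested genes in grey and the 121 members in purple (values past 1.2 drawn at the edge). The members' median (dashed) is 0.12 in siNT and -0.02 in siCnot1.

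A coding sequence was found by name in the GENCODE M21 annotation for 117 of the 121 tested members. A finger pattern of C2H2 type was present in 109, with a median of 11 fingers and up to 23, beside 701 of 14030 genes overall. The KRAB A-box pattern was found in 87 members. Of these 9 rose and 6 fell (median log2 fold change 0.04), and of the 30 members without it 3 rose and 1 fell (median 0.10). The difference between these 2 groups was not tested. Over all genes tested, 15% rose and 14.7% fell.

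The members' coding sequences ended their codons in G or C less often than those of other genes, with a median of 37.5% at the last codon position against 61.2% of all genes. Their 3′ untranslated regions held a median of 61.3% A and T, against 55.1%. The pentamer ATTTA, the core of AU-rich elements, was found in this region in 84 of 107 members (78.5%) and in 65.0% of all genes. The region was also longer in the members, at a median of 1156 bases against 937. Members with ATTTA had a median of 1355 bases and those without it 603. The part of length and A and T content in the ATTTA shares was not tested. Zfp1 to Zfp699 were similar to the members in these regions, with 59.6% A and T and ATTTA in 78.1%, but had 54.7% G or C at the last codon position. The 8-base pattern TGTANATA, the core of Pumilio sites, was found in 24 members (22.4%) and in 23.5% of all genes. Among members with ATTTA 9 rose and 4 fell, with a median of 0.07, and among those without it 3 rose and 2 fell, with a median of 0.10. Members with TGTANATA had a median of 0.17 (2 higher, 1 lower) and those without it 0.04 (10 higher, 5 lower). These counts stand beside 15% of all genes higher and 14.7% lower.

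Across members, the log2 fold change had Spearman correlations of -0.28 with the siNT level (n = 121), 0.22 with coding length, 0.14 with G or C at the last codon position and 0.07 with the number of fingers (n = 117 each). Over all genes the values were -0.28, 0.15, 0.14 and 0.01. Genes are not independent replicates, all points share the 4 libraries, and the level enters the fold change, so these values are given as descriptions.

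The partners through which KRAB zinc finger proteins act were examined as a list of their own. Of 32 genes of the TRIM28 silencing pathway, all tested, 11 fell (34.4%, beside 14.7% of all genes) and 3 rose (9.38%, beside 15%), with a median log2 fold change of -0.13. These genes were better measured than the members, with a median siNT level of 206 normalized CPM and a median SE of 0.06 against 11.8 and 0.13, and the median size of the change was alike at 0.16 and 0.15. Over all genes the median level was 11.3 and the median SE 0.14, so small changes are more easily called in this list than in that background. The list also holds Zfp42 and Zfp57, which belong to Zfp1 to Zfp699 too and did not pass. The difference between the lists was not tested. Trim28 was at 1790 and 1766 normalized CPM in siNT and 1506 and 1559 in siCnot1, a change of -0.21 (SE 0.05, adjusted p = 0.00258) that was -0.11 and did not pass with library totals. Setdb1 was at 195 and 204 against 188 and 190, and its change of -0.08 (SE 0.06, adjusted p = 0.337) did not pass.

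The smallest adjusted p in this list belonged to Sumo2, which encodes a SUMO protein, at 313 and 316 normalized CPM against 238 and 256 (-0.35, SE 0.06, adjusted p = 5.94e-05). Dnmt3l, a cofactor of the de novo DNA methyltransferases, went from 298 and 266 to 214 and 229 (-0.35, SE 0.06, adjusted p = 0.00014). Mphosph8, a subunit of the HUSH silencing complex, went from 196 and 201 to 164 and 166 (-0.27, SE 0.06, adjusted p = 0.00102). All 3 had siCnot1 values below both siNT values, and none changed 2-fold. With library totals in place of scaled library sizes 6 of the 32 genes fell and 7 rose, beside 8.64% of all genes lower and 22% higher. The balance of calls thus moved with the scaling, both in this list and over all genes.

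The other numbered Zfp genes were much like the members. Of 224 tested genes from Zfp1 to Zfp699, 24 rose (10.7%) and 18 fell (8.04%), at a median of 0.03 on the log2 scale, and 7 and 1 met the study's thresholds. The share called, 18.8%, was likewise below that of all genes, and the difference from the members' 16.5% was not tested.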

How the data were processed

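Poly(A)+ RNA of 4 libraries was read as paired ends from a stranded (dUTP) preparation, and the authors deposited raw counts per gene with exon lengths as another column. The submitters' processing notes name fastp 0.19.4, HISAT2 2.2.1 and DESeq2 1.40.2. The counting program, its strand setting and its handling of reads that match several genes are not given in the sources used here, so counts of overlapping genes and near-identical copies are uncertain. Exons of 33 of the 128 members overlap another listed gene, 20 of them with the largest overlap on the opposite strand.

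Counts were normalized by TMM (factors 0.964 to 1.04) and tested with the quasi-likelihood test of edgeR 4.0.16 in R 4.3.3, siCnot1 against siNT, after filterByExpr (minimum count 10), with Benjamini-Hochberg adjustment over 18144 genes and a threshold of 0.05. Fold changes are siCnot1 over siNT, and intervals are 95%. Counting error sets the floor of 3 counts. Alternatives used other scalings, other filters, DESeq2 1.42.0, limma 3.58.1 (voom), a replicate block and the omission of each library. On simulated counts for all 18144 genes of this comparison the test recovered 77 of 100 genes changed 2-fold and 47 of 100 changed 1.5-fold, with 0 false calls. Only 200 genes were changed there, whereas 29.7% were called in the data, and no shift between siNT replicates was simulated. These figures therefore may not carry over to the members. Replicates differed by more than sampling noise (chi-square per gene 5.11 in siNT and 4.38 in siCnot1) and were kept as separate samples.

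The members, gene lists, clusters and tests were chosen with earlier results of these data known. Named genes were the 8 higher and 6 lower called members with the smallest p, the 6 largest and 4 smallest called fold changes, the 5 highest FPKM in siNT, the smallest p of each cluster, 12 members with known roles and, outside the members, Cnot1, Trim28, Setdb1 and the 3 silencing genes with the smallest p. Promoters came from RefSeq. No protein table was used: fingers (C2H2 spacing), KRAB A-boxes (in the first 150 residues) and untranslated regions were searched in the longest coding transcript of each gene in GENCODE M21, and the 100-base windows of 124 members were compared with the transcripts of all other genes.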

Additional observations from a re-analysis of the deposited data

How the results depend on the processing

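The direction of all 20 called members was kept in each of the 12 alternative fits. Their groups do not overlap, and the smallest called change (-0.20, Zfp961) exceeds in size the shift that library totals bring to all genes. The kept direction therefore follows largely from the calls themselves and is no separate check. The fit described above had 13 higher (10.7%) and 7 lower (5.79%), beside 15% and 14.7% of all genes. With DESeq2 it was 8 and 5, with library totals 29 and 2, and without a filter on low counts 2 and 1, where 30308 genes were tested and 9.08% of all were called. Other scalings, a filter at 1 CPM in 2 libraries and limma-voom gave 14 to 18 higher (11.6% to 14.9%) and 7 lower (5.79% to 6.14%). Of all genes these fits called 14.7% to 19% higher and 13.4% to 17.9% lower. Leaving out 1 library left 1 to 5 higher and 0 to 3 lower, with fewer samples behind each test, and the share of all genes called was then 8.33% to 15.1% in place of 29.7%. At the study's thresholds 2 members were higher, 1 with the 1 CPM filter and 0 to 4 without 1 library. The median log2 fold change of the members, 0.06, was 0.16 with library totals and ran from -0.0245 to 0.134 without 1 library. The fall to -0.0245 came without siNT replicate 1. In the chromosome 17 cluster, an alternative chosen after seeing the data, 7 higher and 1 lower became 4 and 0 with DESeq2, 1 and 0 without a filter, 8 and 0 with library totals, and 0 to 2 higher and 0 lower without 1 library.

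For Zfp1 to Zfp699, 24 higher and 18 lower became 43 and 5 with library totals, where 22% of all genes were higher and 8.64% lower. Without a filter they became 10 and 4, where 4.3% of all genes were higher and 4.78% lower. For the TRIM28 silencing genes, 3 higher and 11 lower became 7 and 6 with library totals, beside 22% and 8.64% of all genes. Without a filter they became 1 and 10, beside 4.3% and 4.78% of all genes. With 500000 bp between starts in place of 1000000 bp there were again 10 clusters, holding 63 members in place of 77.

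With the replicate number as a block, 13 members were higher and 7 lower, 11 and 7 of them those of the fit without the replicate block. The replicate numbers share only a number: the correlation of the deviations of same-numbered libraries was -0.00566.

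Named genes whose sign changed were not called. With library totals, Zfp704 came to 0.00621, Zfp711 to 0.101, Zfp809 to 0.0179, Zfp954 to 0.0453, Zfp990 to 0.0948 and Setdb1 to 0.029. With upper-quartile scaling Zfp711 came to 0.0139 and Zfp990 to 0.00729, and with the 1 CPM filter Zfp711 came to 0.00486. Zfp740 came to -0.00108 with DESeq2 and its size factors and to -0.0025 without a filter. Without 1 library, Zfp711 ranged from -0.123 to 0.115, Zfp740 from -0.0296 to 0.0279, Zfp787 from -0.15 to 0.21, Zfp932 from -0.0759 to 0.327 and Zfp990 from -0.106 to 0.0806. With 32135824 to 32557440 counts in each library and 2 libraries a group, 8 of the tested members were under 1 CPM in siNT, and none of these passed the test.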
